A study of Homo sapiens with 3 samples.

Results

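The mature microRNAs that lie among the HOX genes were followed across small RNA libraries of CAL-27, a long-established line of human tongue squamous carcinoma cells. They were hsa-miR-10a-5p, hsa-miR-10b-5p, hsa-miR-196a-5p, hsa-miR-196b-5p and hsa-miR-615-3p, chosen by name for their place in the HOX gene clusters, and all 5 were among the 1149 mature miRNAs of the table. RR was the radioresistant group, whose cells were irradiated daily with 2 Gy of X-rays for 5 days, in 2 such cycles each followed by 2 weeks of rest, before single-cell clones were isolated. The library labelled Mock came from cells given a single exposure of 2 Gy, and CC was an untreated control, both also cloned from parental CAL-27. There was 1 library per group, whether 1 clone or more went into a library is not stated, and no difference has a replicate check. The treatment tag that names a 2 Gy dose stands on RR and the tag that names irradiation alone stands on Mock, so every direction below refers to the library that carries the label.

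HOX genes encode transcription factors that set position along the body axis, and they lie in 4 clusters on different chromosomes. The miR-10 and miR-196 genes sit between the HOX genes at matching places of several clusters, as copies left by the duplications that gave rise to the clusters, and their products repress HOX messages among others. miR-10b, known from invasive breast carcinoma, represses HOXD10. miR-196 directs cleavage of the HOXB8 message and is known as a miRNA raised in squamous carcinomas of the head and neck. miR-615 lies in an intron of HOXC5 and belongs to neither family.

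The mature sequences, as the deposited table gives them, show which members share a seed and how little separates the pairs. Each is written 5′ to 3′ with the seed (bases 2 to 8, the part that chooses targets) in capitals.
miR-10a-5p: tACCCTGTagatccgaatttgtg
miR-10b-5p: tACCCTGTagaaccgaatttgtg
miR-196a-5p: tAGGTAGTttcatgttgttggg
miR-196b-5p: tAGGTAGTttcctgttgttggg
miR-615-3p: tCCGAGCCtgggtctccctctt
The 5 members thus carried 3 seeds. miR-10a-5p and miR-10b-5p differed by 1 substitution over 23 bases, T12A (miR-10a-5p's base first, counted from the 5′ end), and miR-196a-5p and miR-196b-5p by 1 over 22 bases, A12C (miR-196a-5p's base first). Both substitutions lie outside the seed. No other listed miRNA shared a seed with any member or came within 2 mismatches of one, and miR-615-3p had neither a seed mate nor a near-identical miRNA. No source used here says how reads that match more than 1 miRNA were assigned, so the split of reads within each pair is uncertain.

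On GRCh38 the members come from 6 hairpins in all 4 HOX clusters (coordinates from RefSeq, host genes from GENCODE release 29). MIR10A lies in the HOXB cluster at chr17:48579838-48579947 on the minus strand, in introns of HOXB3 and in an exon of HOXB4 annotated as UTR. MIR10B lies in the HOXD cluster at chr2:176150303-176150412 on the plus strand, in an intron of HOXD3 and 810 bases before HOXD4. miR-196a-5p has 2 source genes, MIR196A1 at chr17:48632490-48632559 on the minus strand in an intron of HOXB7, and MIR196A2 at chr12:53991738-53991847 on the plus strand in an intron of HOXC6. MIR196B lies at chr7:27169480-27169563 on the minus strand, in introns of HOXA9 transcripts and in an exon of 1 of the 3 that span it. MIR615 lies at chr12:54033950-54034045 on the plus strand in an intron of HOXC5. GENCODE places 2 further hairpins within the HOX clusters, MIR3185 and MIR7704, and their products were not among the listed miRNAs. MIR10A and MIR615 were the 2 hairpins with more than 20 reads of the minor arm in every library, and they are printed with both arms in capitals because the arms are compared further on.
MIR10A: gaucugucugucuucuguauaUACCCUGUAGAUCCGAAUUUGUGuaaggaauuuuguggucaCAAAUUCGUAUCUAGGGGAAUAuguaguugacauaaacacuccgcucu
MIR615: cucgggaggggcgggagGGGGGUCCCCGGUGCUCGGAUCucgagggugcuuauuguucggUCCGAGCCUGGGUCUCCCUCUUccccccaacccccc
MIR615 held 70.8% G and C, against 39.1% in MIR10A.

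The site of miR-196 in HOXB8 shows the target that defined this family. In the HOXB8 transcript the best ungapped match to the reverse complement of miR-196a-5p lay in the 3′ UTR at chr17:48612770-48612791 of GRCh38, minus strand, printed with complementary bases in capitals.
HOXB8 site: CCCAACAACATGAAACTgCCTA
It was complementary to 21 of the 22 bases of miR-196a-5p, all but position 5. There a G of the site faces a U of the miRNA, and G:U pairs were not counted as complementary. It was complementary to 20 of 22 bases of miR-196b-5p, which also lacked a match at position 12. HOXB8 was the 1 gene out of 19669 protein-coding genes with a match this complete to miR-196a-5p in its longest transcript. Messenger RNA was not measured in these libraries, so nothing is known here of HOXB8 itself.

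The libraries held 10473400 reads in RR, 10632785 in Mock and 10769990 in CC as recovered from the step between values, and listed miRNAs took 20.5% of those of RR, 23.2% of those of Mock and 16.3% of those of CC. Levels are in rpm, reads per 1000000 reads of that total, with exact 95% Poisson intervals that cover counting error only, since PCR copies were not removed by molecular identifiers. The squamous and epithelial marker miRNAs were all above 10 rpm in each library, with sums of 44137 rpm in RR, 28369 rpm in Mock and 37902 rpm in CC. In that list miR-205-5p was lower in Mock than in CC, at 14174 against 25945 rpm, and the other 4 markers were higher in Mock in rpm. For miR-203a-3p, at 23.7 (20.9 to 26.8) against 22.8 rpm (20.1 to 25.9), the difference was within counting error. As a fraction of miRNA reads miR-141-3p was higher in Mock than in CC (0.0149% against 0.0102%). miR-200c-3p (6.01% against 7.22%), miR-31-5p (0.0944% against 0.110%) and miR-203a-3p (0.0102% against 0.0141%) were lower on that scale. Of the 5 blood markers 4 were listed, with a summed level of 12.3 rpm in RR, 407 rpm in Mock and 9.56 rpm in CC, of which miR-486-5p alone gave 11.5 rpm in RR, 398 rpm in Mock and 8.73 rpm in CC, while miR-142-3p had 0 reads in RR as did miR-150-5p in CC. The muscle marker miR-206 stood at 3.63 rpm in RR, 25.5 rpm in Mock and 1.76 rpm in CC. The rest of the muscle list was lowest in Mock. miR-1-3p stood at 404 rpm in RR, 319 rpm in Mock (308 to 330) and 338 rpm in CC (327 to 349), and miR-133a-3p at 0.859, 0.658 and 1.02 rpm. The miR-1-3p intervals of Mock and CC overlap. For miR-133a-3p, with 9 reads in RR, 7 in Mock and 11 in CC, all intervals overlap. The part of these miRNAs' source in the results for Mock was not tested.

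Together the 5 members gave 1132 rpm in RR (95% interval 1111 to 1152), 1363 rpm in Mock (1341 to 1386) and 849 rpm in CC (832 to 867). They made up 0.552% of the miRNA reads of RR, 0.589% of those of Mock and 0.522% of those of CC. miR-10a-5p was the most abundant in each library and miR-615-3p the second. miR-10a-5p gave 55.4% of the members' reads in RR, 75.0% in Mock and 59.8% in CC. miR-615-3p gave 32.9% of them in RR, 12.2% in Mock and 30.1% in CC.

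The miR-10 pair, repressors of HOX messages from the HOXB and HOXD clusters, was carried almost wholly by miR-10a-5p. miR-10a-5p stood at 627 rpm in RR (612 to 642), 1023 rpm in Mock (1004 to 1042) and 508 rpm in CC (495 to 522). In rpm Mock was thus the highest library and CC the lowest. As a fraction of all miRNA reads RR was the lowest, at 0.306% against 0.442% in Mock and 0.313% in CC. miR-10a-5p ranked 40th among all listed miRNAs in RR, 32nd in Mock and 41st in CC. miR-10b-5p stood at 24.5 rpm in RR (21.6 to 27.7), 23.8 rpm in Mock (21.0 to 26.9) and 15.5 rpm in CC (13.2 to 18.04). RR and Mock did not differ beyond counting error for miR-10b-5p, and CC lay below both in rpm. As a fraction of all miRNA reads miR-10b-5p was 0.0120% in RR, 0.0103% in Mock and 0.00954% in CC.

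The miR-196 pair had its lowest level in CC and its highest in Mock. miR-196a-5p, made from a HOXB and a HOXC gene, stood at 88.5 rpm in RR (82.9 to 94.4), 124 rpm in Mock (118 to 131) and 59.1 rpm in CC (54.6 to 63.8). miR-196b-5p, the HOXA copy, stood at 19.0 rpm in RR (16.5 to 21.8), 26.2 rpm in Mock (23.3 to 29.5) and 10.5 rpm in CC (8.65 to 12.6). Both miRNAs gave the same order of the 3 libraries.

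miR-615-3p, the HOXC5 intron product, had the opposite order of Mock and CC. It stood at 373 rpm in RR (361 to 385), 166 rpm in Mock (158 to 174) and 256 rpm in CC (246 to 266). RR was its highest library and Mock its lowest.

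**Figure D1:**
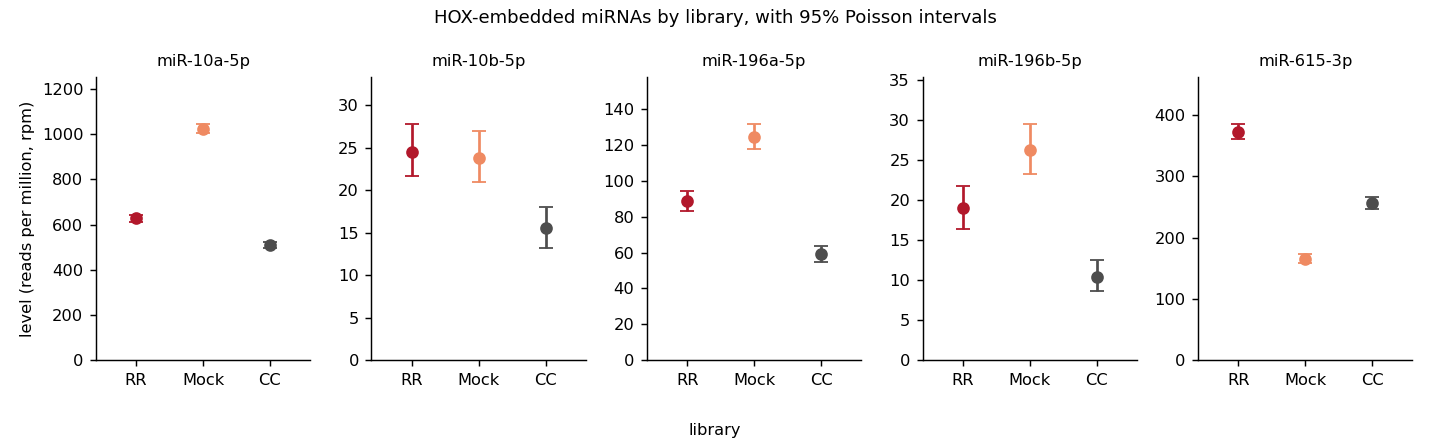
Level of each HOX-embedded miRNA in rpm (vertical axes, starting at 0 and scaled to each miRNA) in the RR, Mock and CC libraries, 1 library each, with bars for exact 95% Poisson intervals. miR-10a-5p, miR-196a-5p and miR-196b-5p are highest in Mock, miR-10b-5p is alike in RR and Mock, and miR-615-3p is lowest in Mock at 166 rpm.

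The order of levels was miR-10a-5p, miR-615-3p, miR-196a-5p, miR-10b-5p and miR-196b-5p in RR and in CC. In Mock miR-196b-5p and miR-10b-5p changed places, with a ratio of 1.10 (0.927 to 1.31) between them that does not differ from 1 beyond counting error. In RR miR-10b-5p was 1.29-fold above miR-196b-5p (1.07 to 1.56), and in CC 1.48-fold (1.16 to 1.89). The gap between miR-615-3p and miR-196a-5p was 4.21-fold in RR (3.92 to 4.53), 1.34-fold in Mock (1.24 to 1.43) and 4.33-fold in CC (3.97 to 4.73). The members are 22 or 23 bases long. Ligation favours some ends over others, which makes levels of different miRNAs less comparable than levels of a single one.

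RR over CC compares the radioresistant library with the untreated one. All 5 members were higher in RR on the deposited scale, as were 182 of the 208 miRNAs that averaged at least 10 rpm across the 3 libraries. None of the 5 was higher by 2-fold or more, where 0.962% of the 208 were higher by that much and 0.481% lower. All 5 members passed that mean. miR-196b-5p had the largest ratio, 1.81-fold (exact interval 1.43 to 2.30), the 8th highest of the 208. miR-10b-5p was 1.58-fold (1.30 to 1.93), miR-196a-5p 1.499-fold (1.35 to 1.66) and miR-615-3p 1.46-fold (1.39 to 1.53). miR-10a-5p, at 1.23-fold (1.19 to 1.28), was the member nearest to no change.

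On the log2 scale, after adding 1 rpm, the median of the 5 members in RR over CC was 0.58, beside 0.36 for all 208, and 4 of the 5 lay above that median. With each library scaled by its median ratio to the geometric mean, which took the median of all miRNAs to -0.02, the members kept values of 0.44 for miR-196b-5p, 0.26 for miR-10b-5p, 0.20 for miR-196a-5p and 0.16 for miR-615-3p, while miR-10a-5p turned to -0.08. miR-10a-5p also turned below 0 when taken as a fraction of all miRNA reads (-0.03) and with a total that leaves out the 10 most abundant miRNAs (-0.02). GC content made little difference in this comparison, as the Spearman correlation between GC content and log2 ratio over the 208 miRNAs, which share 2 libraries, was 0.05.

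Mock over CC compares the library given 1 exposure with the untreated one, and exposure cannot be told apart from clone or library here. On the deposited scale 3 of the 5 members, miR-10a-5p, miR-196a-5p and miR-196b-5p, were higher in Mock by 2-fold or more, against 12% of the 208 miRNAs. None of the 5 was lower by 2-fold, against 3.85%. miR-196b-5p was 2.50-fold higher (2.00 to 3.14), the 11th highest ratio of the 208. miR-196a-5p was 2.11-fold higher (1.91 to 2.32) and miR-10a-5p 2.01-fold (1.95 to 2.08), both with intervals that reach below 2-fold. miR-10b-5p was 1.53-fold higher (1.26 to 1.88). miR-615-3p went the other way, 1.54-fold lower in Mock (1.45 to 1.64), a log2 ratio of -0.62 that was the 23rd lowest of the 208.

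These counts rest on the scale. With median-ratio scaling the log2 ratios of miR-196b-5p, miR-196a-5p and miR-10a-5p were 0.96, 0.76 and 0.71 and none of the 5 members passed 2-fold, against 4.81% of the 208 higher by that much; the split of all 208 miRNAs between higher and lower turned from 25 and 8 to 10 and 18. Taken as a fraction of all miRNA reads the 3 values were 0.77, 0.56 and 0.50, while miR-615-3p came to -1.13 and passed 2-fold as lower, as did 14.9% of the 208 on that scale. The signs of all 5 members in Mock over CC were the same under each of the scalings tried. For miR-10b-5p the log2 ratio fell from 0.59 to 0.10 as a fraction of all miRNA reads. No interval was computed on that scale, so its sign there says little.

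**Figure D2:**
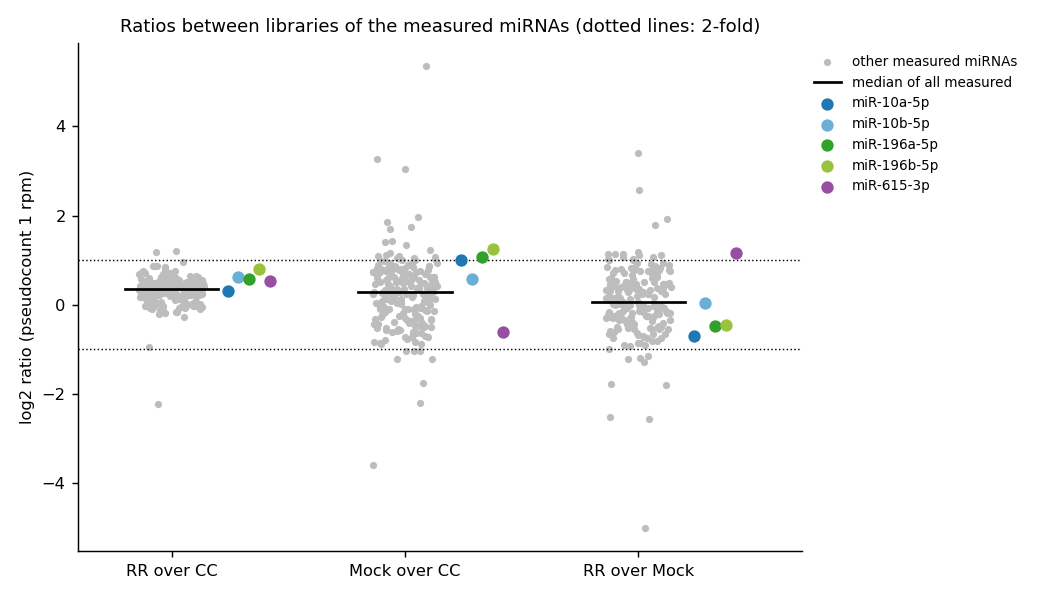
Log2 ratios after adding 1 rpm (vertical axis) for RR over CC, Mock over CC and RR over Mock, with the 208 measured miRNAs as grey points, their median as a black line, the 5 members as coloured points to the right and 2-fold as dotted lines. Members lie close together in RR over CC, from 0.30 to 0.80, and spread from -0.62 to 1.25 in Mock over CC.

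RR over Mock compares the library given repeated irradiation with the library given a single exposure. miR-615-3p was the 1 member past 2-fold, 2.24-fold higher in RR (2.12 to 2.38) and the 6th highest ratio of the 208, of which 8.17% were higher by 2-fold or more and 4.81% lower. miR-10a-5p was 1.63-fold lower in RR (1.58 to 1.68), miR-196a-5p 1.40-fold lower (1.29 to 1.53) and miR-196b-5p 1.38-fold lower (1.15 to 1.66). miR-10b-5p had a ratio of 1.03 (0.863 to 1.23), an interval that includes no change. This comparison shares the Mock library with the one before and the RR library with the first, so the 3 sets of values are not independent.

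In the comparisons with Mock miR-615-3p stood apart from the other members, and it also did so in base composition. Among the other members ratios did not follow GC content. miR-10a-5p and miR-10b-5p both hold 43.5% G and C, with log2 ratios of 1.01 and 0.59 in Mock over CC. The miR-10 and miR-196 members hold 40.9% to 45.5% G and C, and all 4 fall in the low-GC class when the 208 miRNAs are cut at 2 values of GC content (80 miRNAs), whereas miR-615-3p holds 63.6% and falls in the high-GC class (63 miRNAs). Over all 208, the Spearman correlation between log2 ratio and GC content was -0.55 in Mock over CC and 0.60 in RR over Mock. In Mock over CC the median log2 ratio was 0.65 in the low-GC class and -0.29 in the high-GC class. In the low-GC class 20% of miRNAs were higher in Mock by 2-fold or more, and in the high-GC class 3.17%.

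Set against miRNAs of like GC content, miR-196b-5p ranked 6th highest of 80 in Mock over CC, miR-196a-5p 10th, miR-10a-5p 14th and miR-10b-5p 49th. miR-615-3p ranked 48th of 63. In RR over CC, where no GC trend was seen, miR-196b-5p ranked 1st of the 80, miR-10b-5p 6th and miR-196a-5p 10th, while miR-10a-5p ranked 46th. The lead of miR-196b-5p was narrow, at 0.80 on the log2 scale beside 0.78 for miR-146b-5p and 0.76 for miR-203a-3p. It rests on 113 reads in CC, too few to fix the rank. With a linear GC trend removed, Mock over CC was 1.11 on the log2 scale for miR-196b-5p, 0.82 for miR-10a-5p, 0.80 for miR-196a-5p, 0.40 for miR-10b-5p and -0.23 for miR-615-3p, beside a median of 0.32 for all 208. One member, miR-196b-5p, was then past 2-fold, where 8.17% of the 208 were higher by that much. RR over Mock for miR-615-3p came to 0.74, under 2-fold, where 3.37% of the 208 were higher by that much. What part GC content has in the differences of Mock was not tested beyond these values.

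**Figure D3:**
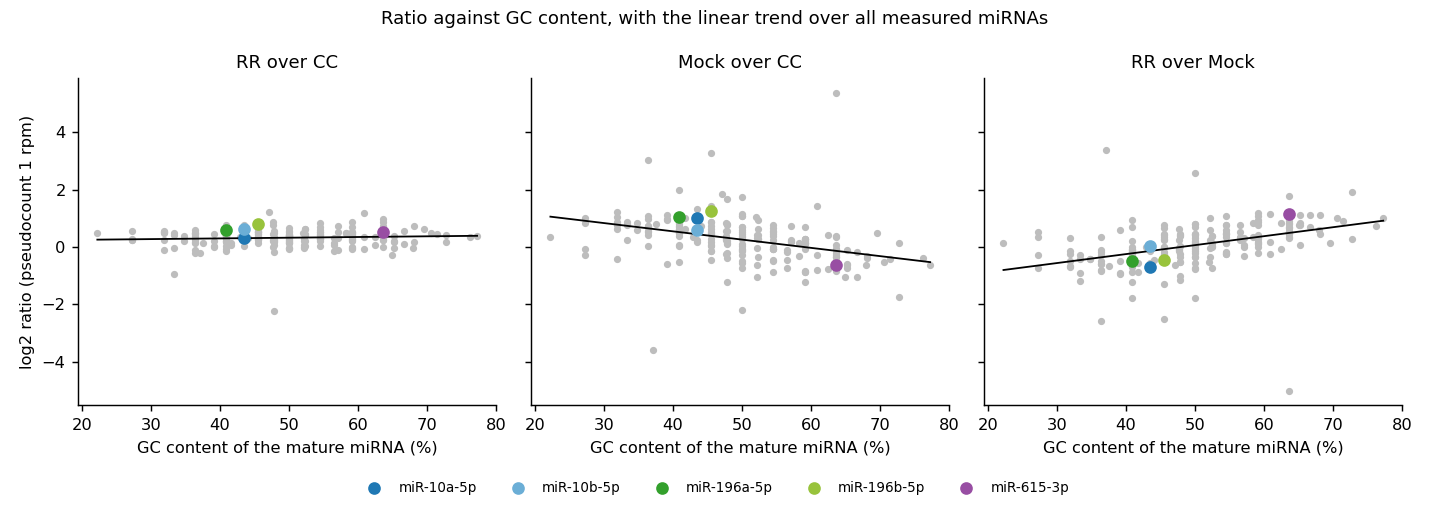
Log2 ratio after adding 1 rpm (vertical axes) against the GC content of the mature miRNA in percent (horizontal axes) for the 3 comparisons, with the 208 measured miRNAs in grey, the members in colour and the linear trend as a line. The trend is near flat in RR over CC, falls in Mock over CC and rises in RR over Mock, and miR-615-3p lies at 63.6% GC while the other members lie between 40.9% and 45.5%.

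Within a pair, the ratio of the 2 copies does not depend on how libraries are scaled, and the miR-10 copies also have equal GC content. miR-10b-5p made up 3.77% of the reads of the miR-10 pair in RR (exact binomial interval 3.33% to 4.25%), 2.27% in Mock (2.00% to 2.57%) and 2.96% in CC (2.53% to 3.44%). RR over Mock of miR-10b-5p relative to miR-10a-5p was 1.68 (exact interval 1.41 to 2.02), Mock over CC 0.762 (0.623 to 0.935) and RR over CC 1.28 (1.05 to 1.57). The balance of the pair as counted thus differed between all 3 libraries beyond counting error, with the HOXD copy at its largest share in RR and its smallest in Mock. How reads that match both copies were assigned is unknown, so shares this small may depend on that assignment.

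The miR-196 pair kept its balance within counting error. miR-196b-5p made up 17.7% of the pair in RR (15.5% to 20.03%), 17.4% in Mock (15.6% to 19.4%) and 15.1% in CC (12.6% to 17.9%). The ratio of miR-196b-5p relative to miR-196a-5p was 1.21 in RR over CC (0.933 to 1.57), 1.19 in Mock over CC (0.931 to 1.52) and 1.02 in RR over Mock (0.828 to 1.25). These intervals include 1 and also changes of over 1.5-fold in the first 2 comparisons.

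The other arms of the hairpins were far less abundant than the members. miR-10a-3p stood at 9.74 rpm in RR (7.94 to 11.8), 12.8 rpm in Mock (10.7 to 15.1) and 7.15 rpm in CC (5.64 to 8.94). It made up 1.53% of the reads of both arms in RR, 1.23% in Mock and 1.39% in CC. Its ratio relative to miR-10a-5p did not differ from 1 beyond counting error in any comparison, with 0.889 (0.666 to 1.19) in Mock over CC. miR-10b-3p had 1 read in RR, 2 in Mock and 3 in CC, at or under the 3 reads taken as the floor. miR-196b-3p was not among the listed miRNAs.

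On the deposited scale the arms of miR-615 went different ways in Mock. miR-615-5p stood at 4.49 rpm in RR (3.30 to 5.97), 4.33 rpm in Mock (3.17 to 5.77) and 1.95 rpm in CC (1.21 to 2.98). These levels rest on 47 reads in RR, 46 in Mock and 21 in CC. It was 2.22-fold higher in Mock than in CC (1.30 to 3.91), where miR-615-3p was lower. As a fraction of all miRNA reads miR-615-5p was 0.00187% in Mock against 0.00120% in CC, a smaller gap for which no interval was computed. A rise of miR-615-5p thus depends on the scale, while the ratio of the arms does not. The share of miR-615-5p in the reads of both arms was 1.19% in RR (0.876% to 1.58%), 2.54% in Mock (1.87% to 3.37%) and 0.756% in CC (0.469% to 1.15%). Relative to miR-615-3p, Mock over CC of miR-615-5p was 3.42 (1.99 to 6.05), RR over Mock 0.462 (0.300 to 0.712) and RR over CC 1.58 (0.924 to 2.79). miR-615-5p holds 77.3% G and C, against 63.6% in miR-615-3p. No arm other than the members passed a mean of 10 rpm, and the 2 arm pairs were compared in 3 ways each.

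**Figure D4:**
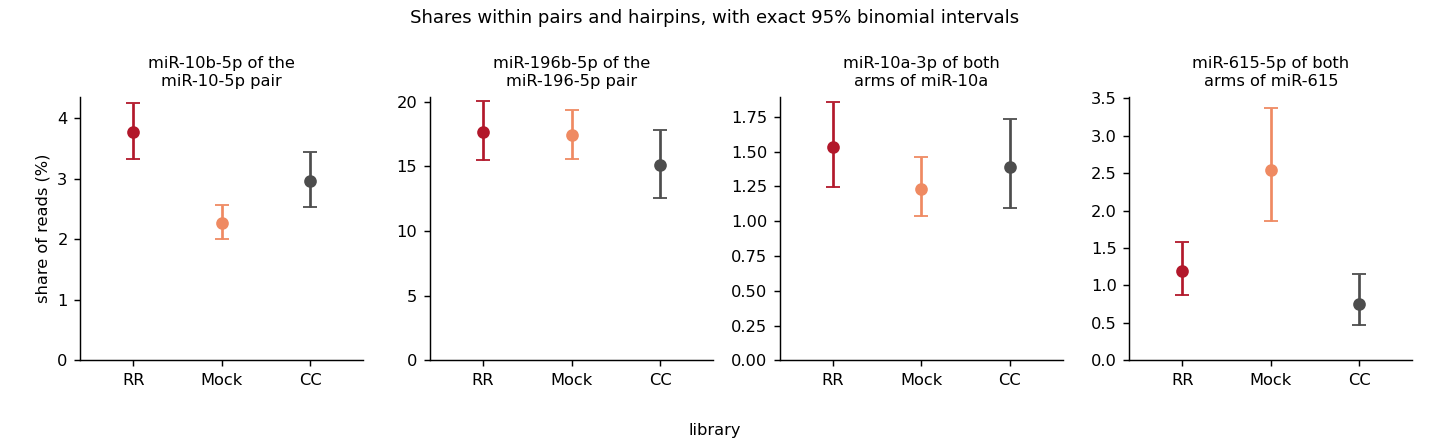
Share of reads in percent (vertical axes, starting at 0) of miR-10b-5p in the miR-10 pair, miR-196b-5p in the miR-196 pair, miR-10a-3p in both arms of miR-10a and miR-615-5p in both arms of miR-615, in RR, Mock and CC, with exact 95% binomial intervals. The share of miR-10b-5p is largest in RR at 3.77%, where the intervals of RR and Mock are apart and that of CC overlaps both. That of miR-615-5p is largest in Mock at 2.54%, apart from RR and CC, whose intervals overlap. In the other 2 panels all intervals overlap.

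The 3p arms tell the 2 miR-196a genes apart, since the 5p arm is the same in both. Their sequences are shown with bases 2 to 8 in capitals.
miR-196a-3p: cGGCAACAagaaactgcctgag
miR-196a-1-3p: cAACAACAttaaaccacccga
miR-196a-3p, of MIR196A2 in the HOXC cluster, had 4 reads in RR, 10 in Mock and 3 in CC. miR-196a-1-3p, of MIR196A1 in the HOXB cluster, had 2 reads in RR, 1 in Mock and 1 in CC. Over the 3 libraries 17 of 21 such reads (81.0%, exact interval 58.1% to 94.6%) were from the HOXC gene. The counts are too few to compare libraries.

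The relatives of miR-10 outside the HOX clusters, miR-99a-5p, miR-99b-5p and miR-100-5p, share a seed of their own and were more abundant as a set. Their sequences carry the seed in capitals.
miR-99a-5p: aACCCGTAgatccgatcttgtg
miR-99b-5p: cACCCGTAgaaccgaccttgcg
miR-100-5p: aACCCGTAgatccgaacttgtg
Aligned to miR-10a-5p with a shift of 1 base, miR-100-5p differed at 3 of 22 bases, miR-99a-5p at 4 and miR-99b-5p at 7. The 3 together stood at 12312 rpm in RR, 12737 rpm in Mock and 9572 rpm in CC, whereas the miR-10 pair stood at 651 rpm in RR, 1047 rpm in Mock and 524 rpm in CC. In Mock over CC miR-99a-5p was 2.23-fold higher (2.10 to 2.37), miR-100-5p 1.53-fold higher (1.51 to 1.54) and miR-99b-5p 1.17-fold lower (1.15 to 1.18). miR-99b-5p holds 63.6% G and C, as miR-615-3p does, and the other 2 hold 50%. In RR over CC the 3 relatives lay between 1.19-fold and 1.33-fold, the range in which miR-10a-5p also fell.

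The miRNAs of most like pattern were taken from those with a mean of 100 rpm or more, as the 3 nearest in the pair of log2 ratios RR over CC and Mock over CC, over the 3 libraries. For miR-10a-5p they were miR-222-3p, miR-20a-5p and miR-30a-5p, at distances of 0.12 to 0.16 on the log2 scale. For miR-10b-5p they were let-7e-5p, miR-27a-3p and miR-339-3p, the first at 0.03. let-7g-5p (0.03), miR-98-5p (0.03) and let-7f-5p (0.16) were nearest to miR-196a-5p, and the same 3 were nearest to miR-196b-5p at 0.26 to 0.32. For miR-615-3p they were miR-92b-3p (0.16), miR-339-5p (0.19) and miR-149-5p (0.25), which hold 60.9% to 65.2% G and C. The miRNAs nearest to the miR-196 members hold 31.8% to 36.4% G and C. The miR-10 members hold 43.5%, and their nearest miRNAs were more mixed. Those of miR-10a-5p hold 39.1% to 52.4%, and those of miR-10b-5p hold 40.9%, 52.4% and 69.6%. With 3 libraries each pattern consists of 2 numbers, so likeness of this kind is weak.

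**Figure D5:**
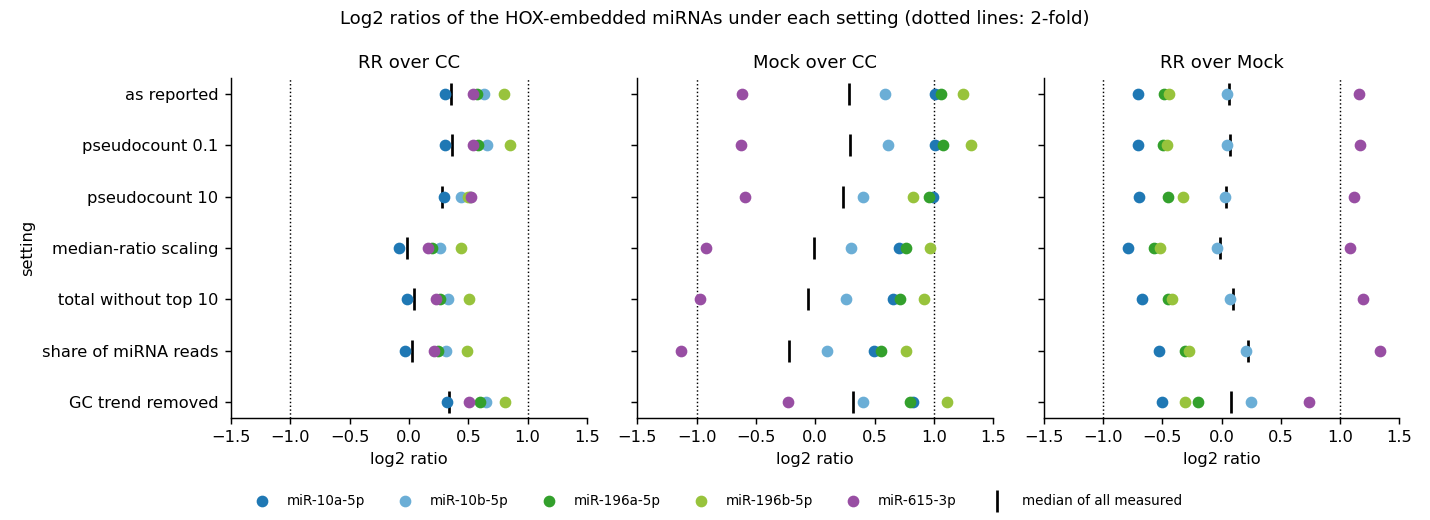
Log2 ratio of each member (horizontal axes, coloured points) under the reported setting and each alternative (rows), for RR over CC, Mock over CC and RR over Mock, with the median of all 208 measured miRNAs as a black tick and 2-fold as dotted lines. Scaling moves members and median together, and in Mock over CC the 3 members above 1 lie below it with median-ratio scaling.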

How the data were processed

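Libraries of small RNA were prepared by adapter ligation and sequenced on an Illumina instrument, per the labels' protocols. Bowtie and GRCh38 appear, without roles, per the submitters' processing notes; trimming, the miRNA reference and the handling of multiply matching reads are unknown from the sources used here. The authors deposited values they call TPM, which behave as RPM: 100% of the 1149 values of each library were whole multiples, within 0.01 of a read, of 1 step, so whole reads were recovered. With 1 library per group no count model could be fitted and no p-value is given. Intervals of levels are exact Poisson, of shares exact binomial (Clopper-Pearson), of ratios derived from Clopper-Pearson limits, and of ratios within pairs the exact conditional odds ratio. A ratio's interval compares 2 libraries, not conditions. A miRNA was counted at a mean of 10 rpm or more (208 miRNAs) if its log2 ratio after adding 1 rpm reached 1 in either direction; folds printed with an interval use deposited values. The GC correction leaves miRNAs of 50% GC unmoved. Named miRNAs were the members, their other arms, the relatives of miR-10 and the 3 most alike per member. Members, lists and alternatives were chosen with earlier results of these data known. Of the 5 members 4, all but miR-10b-5p, matched RefSeq's mature table (GRCh38.p14); its hairpin was matched by sequence. Steps were tested on simulated reads. Scripts ran on Python 3.11.15 with scipy 1.17.1, pandas 2.3.3 and numpy 2.4.6; figures used matplotlib 3.10.9.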

Additional observations from a re-analysis of the deposited data

How the results depend on the processing

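No paired analysis was possible because each group holds 1 library. In Mock over CC, 3 of 5 members passed 2-fold as reported. The count was 0 with a pseudocount of 10, where 6.25% of the 208 were higher and 1.44% lower. It was 0 with median-ratio scaling (4.81% higher, 8.65% lower) and with a total without the 10 most abundant miRNAs (4.81% and 9.13%). At a 4-fold threshold it was also 0, where 1.44% were higher and 0.962% lower. As a fraction of all miRNA reads it was 1 (miR-615-3p, lower, as were 14.9% of the 208). With the GC trend removed it was 1 (miR-196b-5p, higher, as were 8.17%). Of the 2 members left by a mean of 100 rpm or more, 1 passed (miR-10a-5p, where 11.8% of 93 miRNAs were higher). At a 1.5-fold threshold the count was 5 (4 higher and 1 lower, where 33.7% of the 208 were higher and 12.5% lower). In RR over CC the count of 0 became 2 at 1.5-fold (miR-10b-5p and miR-196b-5p, both higher, as were 13.5% of the 208) and was 0 in each other setting. In RR over Mock the count of 1 became 0 with the GC trend removed, where 3.37% of the 208 were higher and 3.37% lower. At 4-fold it was also 0, where 0.962% were higher and 1.44% lower. At 1.5-fold it was 2 (1 higher and 1 lower, where 22.1% of the 208 were higher and 14.4% lower). The changes within the miR-10 and miR-196 pairs moved by less than the distance from the middle to the end of their log2 intervals in each setting. Of 90 alternative log2 ratios of single members, 53 moved by less than the distance from the middle to the end of their log2 interval. The other 37 moved by more, and none past 2-fold changed sign. Depth limits miR-10b-5p and miR-196b-5p most, with as few as 113 reads, and the minor arms of miR-10b and miR-196a have too few reads for any comparison.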
